A study of Mus musculus with 4 samples.

Results

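The genes described here are the 48 listed members of the lysosomal acid hydrolases and other luminal proteins, the lysosomal membrane proteins and the vacuolar proton pump (V-ATPase), out of 53465 genes in the count table. They were chosen by name from their known roles, with earlier results of these data known. They were matched through the Ensembl identifiers of the table, and each matched 1 row. They fall into 26 luminal proteins, 7 membrane proteins and 15 V-ATPase subunits and accessory proteins. The libraries come from B16-F10, a mouse melanoma cell line. Fluorescent cells were infused into zebrafish, recovered and cultured in IMDM with 10% FBS, and polyA RNA was sequenced. In 2 libraries the label says that the cells had extravasated, meaning that they had left the vessels, and in 2 that they had not; the latter are the controls named by the series. Since the labelled growth protocol speaks of extravasated cells in every library, the group rests on the extravasation field. No genotype difference or added agent is labelled in either group. All libraries of a group carry the same number in their titles, so the number and the group cannot be told apart. No label says that the libraries of a group were separate cultures or fish, and the p-values therefore reflect variation among these libraries alone, which may be technical.

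Lysosomes are acidic organelles in which hydrolases break down proteins, glycans and lipids. The V-ATPase pumps protons into them: its V1 sector, in the cytosol, hydrolyses ATP and turns a rotor that drives protons through the V0 sector in the membrane. Membrane proteins shield the organelle, carry cholesterol and enzymes and let ions pass, and in pigment cells melanosomes share much of this machinery. Many genes of the system are activated by MITF, TFEB and TFE3, transcription factors that bind the E-box CACGTG and its extended form in promoters.

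Library totals ranged from 11705904 to 19674733 counts, and mitochondrially encoded genes took 6.51 to 8.88% of counts. The 10 melanoma markers, among them Pmel, Tyr and Mlana, were all detected, with a summed level of 24264 to 31895 CPM (counts normalised to library size with edgeR's TMM factors). Of 8 macrophage markers 5 had no read in any library, Ptprc and Adgre1 among them, and the sum was 0.637 to 1.26 CPM. Of 7 endothelial markers 5 were at 0, Cdh5 and Kdr among them (sum 0.0868 to 0.984 CPM), and of 7 fibroblast markers 2, Dcn and Lum (sum 16.4 to 23.3 CPM). The low-count filter used below kept 4 of the 7 fibroblast markers. By the test used below 1 was higher and 1 lower in extravasated libraries, beside 19.1% and 25.9% of all tested genes. With the correction used below 0 were higher and 0 lower. Fold changes across all genes followed the GC content of the transcripts, with a Spearman rho of 0.743 over 11122 nuclear coding genes, which are not independent and share the same libraries. Results below are given as counted and, for most, also after a correction for GC content and length of the principal transcript, called the corrected value. What produced the trend was not tested.

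Promoter sequence is shown here because the transcription factors above bind it. Members were chosen by known role, and many genes of the system are known to be activated through this motif. The shares below are therefore a description and no independent result. They are set beside all genes of the promoter table, expressed in these cells or not. RefSeq promoter windows (GRCm38.p6), from 250 bases before to 50 bases after each annotated start, were found for 40 of the 48 members. The E-box core CACGTG, which reads the same on both strands, was present in a window of 17 of those 40 members (42.5%), against 2187 of 27025 genes of the whole promoter table (8.09%). The extended form TCACGTGA, which contains the core, was present in 8 members (20%), against 304 genes (1.12%). The core was found in 10 of 23 luminal genes, 3 of 6 membrane genes and 4 of 11 V-ATPase genes. The stretches below, 80 bases each and ending at or before the start site, hold the extended form, or for Lamp1 and Atp6v0b several cores. For Ctsa and Cln3 the stretch precedes a later annotated start inside the gene, and the window at their first start held 0 cores. Capitals mark every core, with the flanking T and A where the extended form is complete.
Ctsa: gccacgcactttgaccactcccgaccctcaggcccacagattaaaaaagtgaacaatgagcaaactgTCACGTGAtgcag
Ctsd: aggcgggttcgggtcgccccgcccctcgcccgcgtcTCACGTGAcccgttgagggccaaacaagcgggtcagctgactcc
Gla: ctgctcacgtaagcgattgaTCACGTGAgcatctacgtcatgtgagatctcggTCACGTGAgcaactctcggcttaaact
Lamp1: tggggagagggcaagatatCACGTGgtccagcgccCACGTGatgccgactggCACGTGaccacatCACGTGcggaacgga
Mcoln1: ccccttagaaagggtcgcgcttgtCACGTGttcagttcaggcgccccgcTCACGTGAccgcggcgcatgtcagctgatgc
Cln3: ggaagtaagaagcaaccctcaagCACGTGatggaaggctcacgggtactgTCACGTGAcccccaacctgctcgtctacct
Atp6v1a: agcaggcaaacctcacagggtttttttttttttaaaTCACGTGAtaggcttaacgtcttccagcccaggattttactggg
Atp6v0b: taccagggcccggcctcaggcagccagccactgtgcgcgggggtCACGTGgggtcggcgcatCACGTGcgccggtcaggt

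These stretches lie at chr2:164833693-164833772 on the plus strand for Ctsa, chr7:142387883-142387962 on the minus strand for Ctsd, chrX:134601174-134601253 on the minus strand for Gla, chr8:13159081-13159160 on the plus strand for Lamp1, chr8:3500424-3500503 on the plus strand for Mcoln1, chr7:126583329-126583408 on the minus strand for Cln3, chr16:44139348-44139427 on the minus strand for Atp6v1a and chr4:117887330-117887409 on the minus strand for Atp6v0b. In Lamp1 the 4 cores begin 61, 45, 28 and 15 bases before the start. In Gla 2 extended forms begin close together, with their cores 227 and 194 bases before it. A match is a description of the letters and not of binding.

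All 48 members passed the filter on low counts; the lowest count of a member in a library was 70. By edgeR's quasi-likelihood test, with p-values adjusted by Benjamini-Hochberg over all 12320 tested genes, 21 members (43.8%) were higher and 6 (12.5%) lower in extravasated cells. Of all tested genes 19.1% were higher and 25.9% lower, and the members were not chosen blind to these data. In bulk RNA, fewer cells of a type and less RNA per cell cannot be told apart. The members' median log2 fold change was 0.36, against -0.020 over all tested genes. After correction 10 members (20.8%) were higher and 0 lower, where 8.24% of all genes were higher and 5.83% lower. All 10 had a transcript GC content of 50.2% or less. At an unadjusted p under 0.05 the corrected counts were 20 higher and 0 lower. With each gene's longest transcript in the correction the counts were again 10 and 0, beside 8.05% and 5.44% of all genes. DESeq2 and limma-voom, run without the correction, each called 21 higher and 6 lower. Only Ctsb, Npc1, Gpnmb and Atp6v0e were called higher both with and without correction. The uncorrected call of Ctsb was lost with a filter of CPM above 1 in 2 libraries (adjusted p = 0.0515) and without control library 2 (0.27, adjusted p = 0.0967), and that of Npc1 with library totals as scaling (adjusted p = 0.0627) and without control library 2 (0.29, adjusted p = 0.125). Of the 6 members called lower, none stayed lower: Ctsl, Asah1, Lamp2, Atp6v1a and Atp6ap2 lost their call, and Atp6v1d was called higher. Leaving out a library changed these counts: without extravasated library 2 the uncorrected counts were 2 higher and 3 lower and the corrected ones 0 and 0 (11 and 0 at an unadjusted p under 0.05), and without extravasated library 1 they were 15 and 4, and 1 and 0. Without control library 1 the uncorrected counts were 24 and 6 and the corrected ones 20 and 1, the lower one being Neu1, and without control library 2 they were 18 and 6, and 13 and 0. In those fits a lone library is assumed to vary like the other group. The shares of all tested genes in those fits, and at an unadjusted p, are not given here. The shares above do not apply to them, so those counts cannot be read against other genes.

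The 17 members called higher only without correction were Ctsa, Ctsd, Ctsz, Hexa, Gaa, Gusb, Fuca1, Sgsh, Psap, Grn, Lamp1, Atp6v1b2, Atp6v1f, Atp6v0b, Atp6v0c, Atp6v0d1 and Atp6ap1. Gla, Lipa, Ppt1, Scarb2 and Atp6v1h were called higher only with it. Of the 17 members with an E-box core 8 were higher and 2 lower in extravasated libraries, with a median log2 fold change of 0.44. Of the 23 without one 10 were higher and 3 lower, with a median of 0.30. After correction 2 of the 17 and 5 of the 23 were higher. Of all tested genes 19.1% were higher and 25.9% lower, and 8.24% and 5.83% after correction. Corrected medians were 0.18 with a core and 0.28 without, so the order of the medians turned with the correction. Median transcript GC content was 53.4% with a core and 51.3% without. In the paragraphs on single genes, a value given for a gene with no unit is a log2 fold change.

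**Figure D1:**
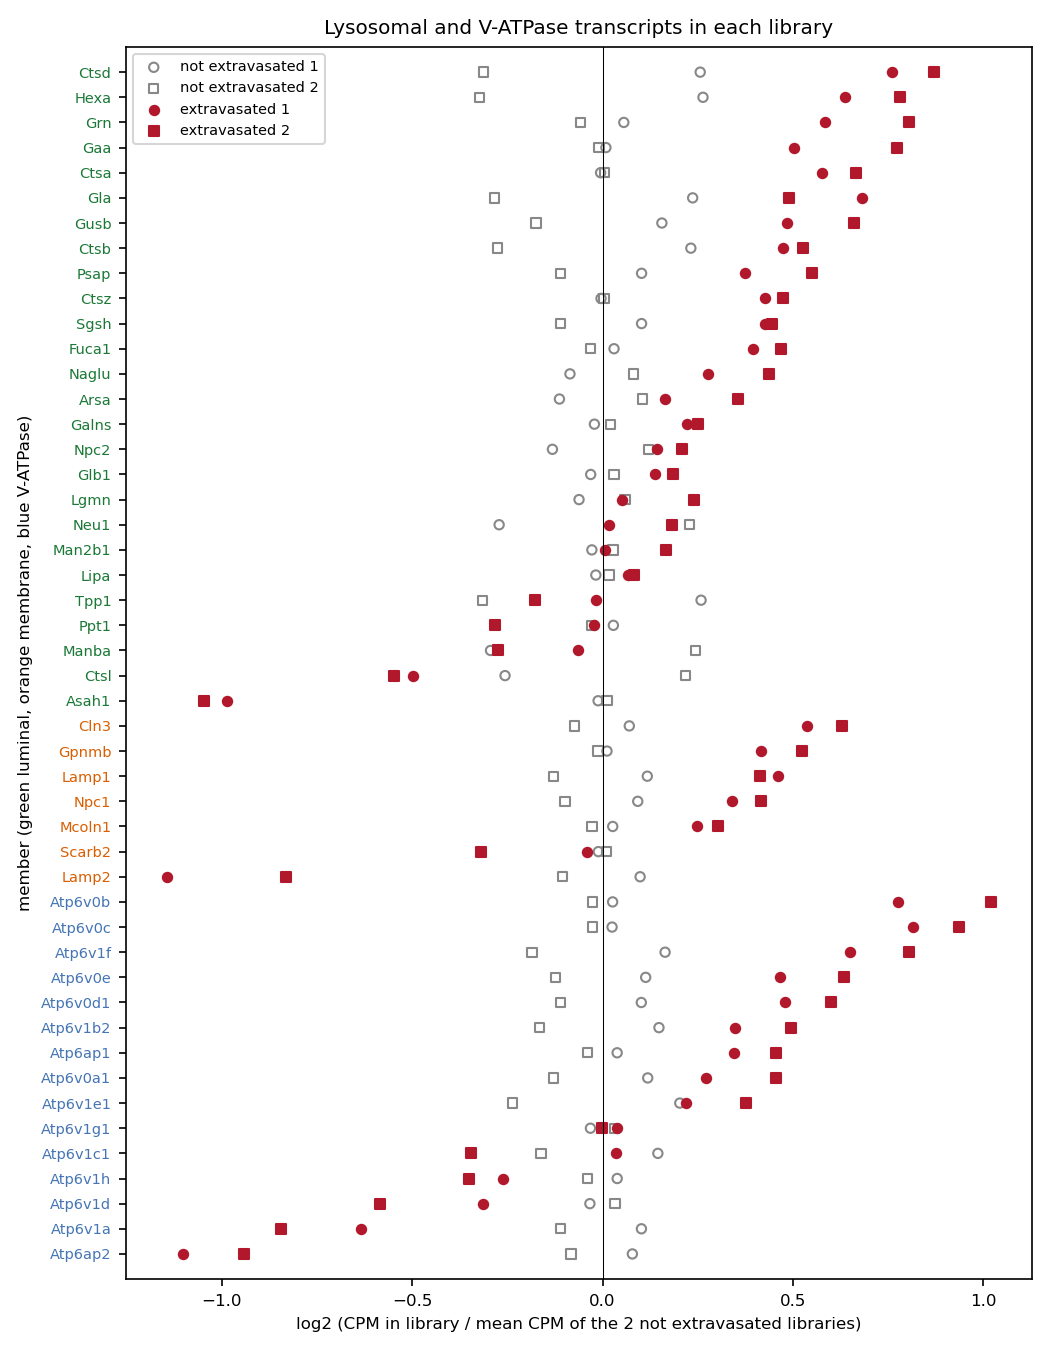
Level of each member in each library, as the log2 ratio of its CPM to the mean of the 2 non-extravasated libraries (horizontal axis), with members in rows sorted by fold change within each class. Open grey symbols are non-extravasated and filled red symbols extravasated libraries; 32 members have both red symbols right of both grey ones and 8 have them left.

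In 32 members both extravasated libraries stood above both non-extravasated ones, and in 8 below; of all tested genes, 37.3% and 39% did so. The plot of members by library also shows where control libraries parted. In 7 members, Ctsb, Ctsd, Tpp1, Hexa, Gla, Neu1 and Manba, the non-extravasated libraries differed from each other by over 0.5 on the log2 scale, most in Hexa with 0.59. No member differed that much between the extravasated libraries, where the widest gap was 0.38, in Atp6v1c1.

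The classes had similar uncorrected medians: 0.31 for luminal proteins, 0.38 for membrane proteins and 0.37 for the V-ATPase. Corrected medians were 0.16, 0.50 and 0.31, against 0.041 over all genes. Called members were 11 higher and 2 lower of 26 luminal genes, 3 and 1 of 7 membrane genes, and 7 and 3 of 15 V-ATPase genes. After correction 4, 3 and 3 were higher. All tested genes had 19.1% higher and 25.9% lower, and after correction 8.24% and 5.83%. The same shares apply beside the subclass counts below. Members are not replicates of a condition, so no test of one class against another was made. Summed over the class, luminal transcripts reached 5340 and 4681 CPM in the controls and 6449 and 6910 CPM in the extravasated libraries, a ratio of means of 1.33 (corrected 1.21). Membrane transcripts stood at 13525 and 13140 against 17511 and 18760 CPM (1.36, corrected 1.54), and V-ATPase transcripts at 2523 and 2254 against 2684 and 2772 CPM (1.14, corrected 1.25). The groups did not overlap in any of the 3 sums.

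**Figure D2:**
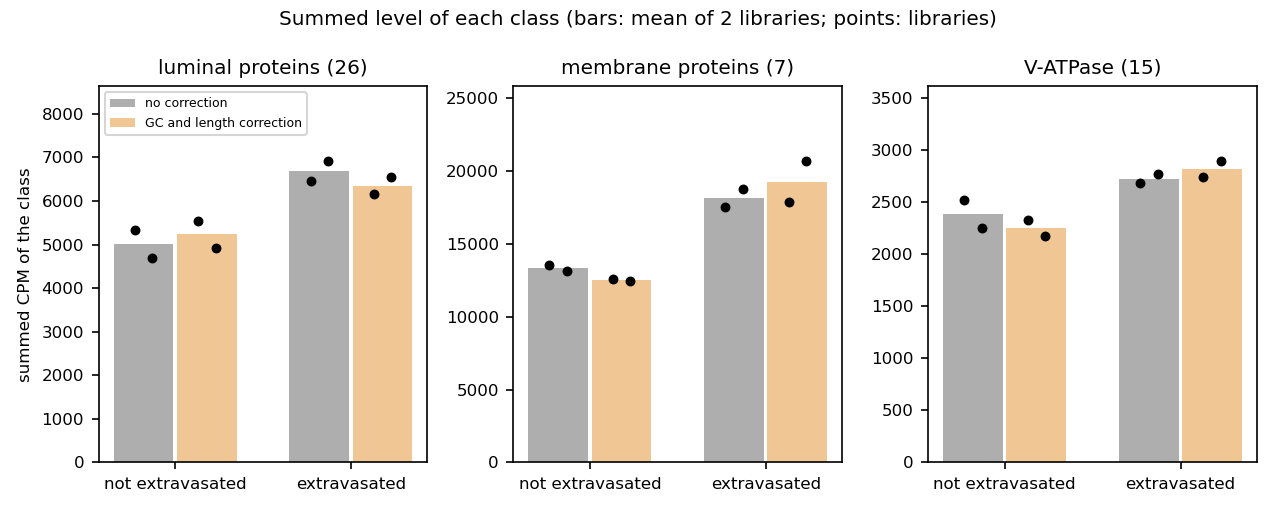
Summed CPM of the members of each class (vertical axis, from 0) by group; bars are means of 2 libraries and points the libraries, in grey without and in orange with the GC and length correction. In each panel both extravasated points lie above both non-extravasated points, by a ratio of means of 1.33, 1.36 and 1.14 from left to right without correction.

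Among luminal proteases, 4 of 7 were higher and 1 lower. Ctsd, the main aspartic protease of lysosomes (ENSMUSG00000007891.16, GRCm38 chromosome 7, 142375911 to 142388038), stood at 559 and 377 CPM in the controls against 794 and 856 CPM in the extravasated libraries, with an edgeR log2 fold change of 0.82 ± 0.190 (SE, adjusted p = 0.014). The extravasated libraries were both higher, although the controls lay far apart, and the corrected value was 0.39 (adjusted p = 0.18). Ctsa, a carboxypeptidase that also protects the Glb1 and Neu1 enzymes in a complex (ENSMUSG00000017760.15, GRCm38 chromosome 2, 164832873 to 164841032), stood at 168 and 169 CPM in the controls against 251 and 267 CPM in the extravasated libraries. Control libraries were almost level and both extravasated libraries lay above them, with an edgeR log2 fold change of 0.62 ± 0.117 (SE, adjusted p = 0.00535). Corrected, the value was 0.36 (adjusted p = 0.0696). Its partners were not called, with log2 fold changes of 0.16 (adjusted p = 0.334) for Glb1, a beta-galactosidase, and 0.10 (adjusted p = 0.68) for Neu1, a sialidase. Ctsz, a carboxypeptidase and the luminal member with the highest level per transcript length (322 and 440.0 CPM per kilobase in the non-extravasated and extravasated group), stood at 463 and 465 CPM in the controls against 623 and 645 CPM in the extravasated libraries. Its rise, with an edgeR log2 fold change of 0.45 ± 0.109 (SE, adjusted p = 0.0133), was -0.10 after correction. Ctsb, a cysteine protease (ENSMUSG00000021939.8, GRCm38 chromosome 14, 63122462 to 63145923), stood at 821 and 577 CPM in the controls against 971 and 1008 CPM in the extravasated libraries, with an edgeR log2 fold change of 0.50 ± 0.171 (SE, adjusted p = 0.0476). It was the only protease still called after correction, with 0.80 ± 0.167 (SE; edgeR adjusted p = 0.0223). Ctsl, another cysteine protease, went the other way, from 162.7 and 225.9 to 137.5 and 132.8 CPM, with an edgeR log2 fold change of -0.52 ± 0.169 (SE, adjusted p = 0.0376). The corrected value was 0.16 (adjusted p = 0.599), and 0.47 with the longest transcript (adjusted p = 0.166), which has 6168 nucleotides against 1971. Lgmn, an asparaginyl endopeptidase, and Tpp1, a tripeptidyl peptidase, were not called, with 0.15 and -0.096, and -0.040 and 0.43 corrected.

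Of the 10 glycosidases 4 were higher, and 1, Gla, was higher after correction. Gaa, which degrades glycogen (ENSMUSG00000025579.14, GRCm38 chromosome 11, 119267887 to 119285454), stood at 222 and 219.5 CPM in the controls against 313 and 378 CPM in the extravasated libraries, with an edgeR log2 fold change of 0.64 ± 0.132 (SE, adjusted p = 0.00715). Hexa, a subunit of beta-hexosaminidase (ENSMUSG00000025232.8, GRCm38 chromosome 9, 59539540 to 59565109), stood at 511 and 339.9 CPM in the controls against 661 and 731 CPM in the extravasated libraries, with an edgeR log2 fold change of 0.71 ± 0.197 (SE, adjusted p = 0.0267). Gusb, beta-glucuronidase, and Fuca1, a fucosidase, rose with log2 fold changes of 0.58 (adjusted p = 0.017) and 0.43 (adjusted p = 0.0262). In all 4 the extravasated libraries exceeded both controls, and none of the 4 was called after correction, with values of 0.24, 0.30, 0.40 and 0.15. Gla, alpha-galactosidase A (ENSMUSG00000031266.6, GRCm38 chromosome X, 134588149 to 134601125), was a low transcript with 15.2 and 10.6 CPM in the controls against 20.7 and 18.1 CPM in the extravasated libraries. Uncorrected it was not called (0.60, adjusted p = 0.0649), and corrected it rose by 1.16 ± 0.202 (SE; edgeR adjusted p = 0.0134), the largest corrected value among luminal members. The other 5, Glb1, Neu1, Manba, Man2b1 and Naglu, were called in neither fit, with corrected values of -0.33 to 0.16.

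Of the 3 enzymes that act on lipids 1 was lower as counted, and the other two were higher after correction. Asah1, acid ceramidase (ENSMUSG00000031591.14, GRCm38 chromosome 8, 41340197 to 41374773), stood at 182 and 185 CPM in the controls against 92.4 and 88.6 CPM in the extravasated libraries, with an edgeR log2 fold change of -1.02 ± 0.120 (SE, adjusted p = 0.0012). Both extravasated libraries lay far below both controls. The transcript has a GC content of 43.5% and the corrected value was -0.12 (adjusted p = 0.537). Lipa, the acid lipase of cholesteryl esters and triglycerides (ENSMUSG00000024781.15, GRCm38 chromosome 19, 34492318 to 34527474), stood at 111 and 114 CPM in the controls against 118 and 119 CPM in the extravasated libraries. It was not called as counted (0.075, adjusted p = 0.637), and its corrected log2 fold change was 0.73 ± 0.124 (SE; edgeR adjusted p = 0.0124). Ppt1, a thioesterase that removes palmitate from proteins, had -0.15 (adjusted p = 0.441) uncorrected and 0.54 (adjusted p = 0.0278) corrected. Its exons overlap Cap1 on the other strand, which had 15140 reads in the 4 libraries against 3360 for Ppt1, and since the strand setting of the counting is not given in the sources used here its value is uncertain.

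The enzymes that remove sulfate were higher in 1 of 3 cases: Sgsh, which acts on heparan sulfate, rose with 0.44 (adjusted p = 0.0426), with Card14 overlapping on the other strand, while Galns and Arsa had 0.24 and 0.26 and were not called. None of the 3 was called after correction, with 0.16, -0.15 and -0.089. Among luminal proteins that are not hydrolases, Grn, the progranulin precursor (ENSMUSG00000034708.11, GRCm38 chromosome 11, 102430315 to 102437048), stood at 157 and 145 CPM in the controls against 226 and 264 CPM in the extravasated libraries, with an edgeR log2 fold change of 0.70 ± 0.132 (SE, adjusted p = 0.00538). Psap, the precursor of the saposins that present lipids to hydrolases, stood at 604 and 521 CPM in the controls against 729 and 823 CPM in the extravasated libraries, with an edgeR log2 fold change of 0.47 ± 0.128 (SE, adjusted p = 0.0213). In both genes all extravasated values exceeded the controls, and neither was called after correction (0.28 and 0.12). Npc2, which hands cholesterol to Npc1, was not called, with 0.18 (adjusted p = 0.306) and 0.12 corrected.

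Of the membrane proteins Gpnmb dominated. This glycoprotein of lysosomes and melanosomes (ENSMUSG00000029816.10, GRCm38 chromosome 6, 49036546 to 49070929) stood at 12123 and 11926 CPM in the controls against 16054 and 17303 CPM in the extravasated libraries, with an edgeR log2 fold change of 0.47 ± 0.108 (SE, adjusted p = 0.0107). It made up 89.6 to 92.2% of the class's summed CPM and 56.7 to 60.8% of that of all 48 members. Its level per kilobase was 3249 ± 37.7 CPM (SD, n = 2) in the non-extravasated and 4507 ± 239 CPM (SD, n = 2) in the extravasated group, far above Lamp1, the next membrane member, with 335 and 454 CPM per kilobase. Without Gpnmb the remaining 6 membrane members summed to 1402 and 1214 CPM in the controls and 1457 and 1456 CPM in the extravasated libraries. Most of the difference in the class sum was therefore in Gpnmb. Its call held after correction, with 0.65 ± 0.131 (SE; edgeR adjusted p = 0.0203). Npc1, the membrane transporter of cholesterol, stood at 130.4 and 114 CPM in the controls against 155 and 163 CPM in the extravasated libraries, with an edgeR log2 fold change of 0.38 ± 0.129 (SE, adjusted p = 0.0445), and corrected at 0.60 (adjusted p = 0.0216). For Npc1 both extravasated libraries lay above both controls; its exons overlap Rmc1 on the other strand.

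Lamp1 and Lamp2, the abundant glycoproteins that line the lysosomal membrane, moved in opposite directions as counted. Lamp1 (ENSMUSG00000031447.7, GRCm38 chromosome 8, 13159161 to 13175338) stood at 811 and 684 CPM in the controls against 1028 and 997 CPM in the extravasated libraries, with an edgeR log2 fold change of 0.44 ± 0.123 (SE, adjusted p = 0.0232). Lamp2 (ENSMUSG00000016534.15, GRCm38 chromosome X, 38401357 to 38456454) stood at 334 and 290.0 CPM in the controls against 141 and 175 CPM in the extravasated libraries, with an edgeR log2 fold change of -0.98 ± 0.149 (SE, adjusted p = 0.00255). In neither gene did the groups overlap. The transcripts differ in GC content, 51.6% for Lamp1 and 38.7% for Lamp2, the lowest of the 48 members. After correction neither was called, and the values were 0.29 and 0.23, with the same sign. Scarb2, also called LIMP-2, an abundant membrane protein of lysosomes (ENSMUSG00000029426.8, GRCm38 chromosome 5, 92441314 to 92506833), stood at 82.4 and 83.6 CPM in the controls against 80.7 and 66.6 CPM in the extravasated libraries; it was not called (-0.17, adjusted p = 0.349), and its corrected value was 0.50 ± 0.118 (SE; edgeR adjusted p = 0.0314). Mcoln1, a calcium channel of the lysosome, stood at 37.7 and 36.3 CPM in the controls against 43.9 and 45.6 CPM in the extravasated libraries, and Cln3, the protein lacking in a childhood storage disease, at 6.08 and 5.50 CPM in the controls against 8.40 and 8.95 CPM in the extravasated libraries. Both had all extravasated values above the controls and were not called, with 0.28 (adjusted p = 0.141) and 0.59 (adjusted p = 0.0772), and -0.16 and 0.57 corrected. Apobr overlaps Cln3 on the other strand.

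Of the V-ATPase sectors, V0 held more genes called higher as counted. All 5 members of V0 had positive log2 fold changes and 4 were called higher. Of the 8 members of V1 2 were called higher and 2 lower. Of all 12320 tested genes 6034 had a positive log2 fold change. V0 transcripts summed to 642 and 573 CPM in the controls and 889 and 997 CPM in the extravasated libraries, a ratio of means of 1.55, and V1 transcripts to 1639 and 1457 against 1555 and 1515 CPM, a ratio of 0.99. After correction the ratios were 1.25 and 1.26. Over the 15 V-ATPase members the fold change followed transcript GC content with a Spearman rho of 0.86, and of -0.19 after correction; the genes share all 4 libraries. Median transcript GC content was 53.5% in V0 and 46.7% in V1.

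In the V0 sector, the proteolipids that form its ring rose most. Atp6v0b (ENSMUSG00000033379.13, GRCm38 chromosome 4, 117884326 to 117887333) stood at 103 and 99.2 CPM in the controls against 173 and 205 CPM in the extravasated libraries, with an edgeR log2 fold change of 0.90 ± 0.135 (SE, adjusted p = 0.00241). Atp6v0c (ENSMUSG00000024121.13, GRCm38 chromosome 17, 24163866 to 24169702) stood at 127 and 123 CPM in the controls against 220.2 and 239.5 CPM in the extravasated libraries, with an edgeR log2 fold change of 0.88 ± 0.122 (SE, adjusted p = 0.00194). Controls were close together and both extravasated libraries lay well above them in either gene, and each was called higher in all 4 fits that left out 1 library; after correction they had 0.31 (adjusted p = 0.119) and 0.31 (adjusted p = 0.0981). Processed pseudogenes of Atp6v0c held 95 and 3 reads in the table, and reads shared with them may have been split. Atp6v0d1, the subunit that links ring and rotor, stood at 154 and 133 CPM in the controls against 200.1 and 217 CPM in the extravasated libraries, with an edgeR log2 fold change of 0.54 ± 0.132 (SE, adjusted p = 0.0135), and had 0.18 corrected. Its groups did not overlap. Atp6v0a1, which forms the proton path with the ring, had 0.37 (adjusted p = 0.0624) and 0.18 corrected. Atp6v0e, a small membrane subunit (ENSMUSG00000015575.14, GRCm38 chromosome 17, 26663231 to 26699647), stood at 53.4 and 45.3 CPM in the controls against 68.1 and 76.6 CPM in the extravasated libraries, with an edgeR log2 fold change of 0.55 ± 0.149 (SE, adjusted p = 0.0193). Its transcript has a GC content of 44.8%, in the tercile of genes with the lowest GC content, and its corrected value was the largest of the 48, 1.30 ± 0.149 (SE; edgeR adjusted p = 0.0052). Without extravasated library 1 it was the one member still called after correction, with 1.47 (adjusted p = 0.0400), and without extravasated library 2 it had 1.14 (adjusted p = 0.0951).

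In the V1 sector the subunits of the ring that hydrolyses ATP parted. Atp6v1a, which holds the ATP-hydrolysing site (ENSMUSG00000052459.13, GRCm38 chromosome 16, 44085402 to 44139705), stood at 256 and 221 CPM in the controls against 154 and 133 CPM in the extravasated libraries, with an edgeR log2 fold change of -0.74 ± 0.139 (SE, adjusted p = 0.00537). Atp6v1b2, its partner in the same ring (ENSMUSG00000006273.14, GRCm38 chromosome 8, 69088646 to 69113711), stood at 221 and 178 CPM in the controls against 253 and 280.5 CPM in the extravasated libraries, with an edgeR log2 fold change of 0.42 ± 0.144 (SE, adjusted p = 0.0442). Neither was called after correction, with 0.13 and 0.44. The rotor subunits parted too. Atp6v1f (ENSMUSG00000004285.12, GRCm38 chromosome 6, 29467718 to 29470512) stood at 121 and 94.7 CPM in the controls against 169 and 188 CPM in the extravasated libraries, with an edgeR log2 fold change of 0.73 ± 0.153 (SE, adjusted p = 0.00775). Atp6v1d (ENSMUSG00000021114.9, GRCm38 chromosome 12, 78840725 to 78861638) stood at 273 and 286 CPM in the controls against 225 and 186 CPM in the extravasated libraries, with an edgeR log2 fold change of -0.44 ± 0.134 (SE, adjusted p = 0.0296). After correction Atp6v1f had 0.12 (adjusted p = 0.561) and Atp6v1d had 0.61 ± 0.147 (SE; edgeR adjusted p = 0.0343), so that Atp6v1d was called in opposite directions by the 2 fits. Of the stalk and regulatory subunits, Atp6v1g1 had the highest level of the class per kilobase in the controls (233 CPM, and 236 CPM in the extravasated group) and stood at 258 and 269.9 CPM in the controls against 271 and 264 CPM in the extravasated libraries. Its groups overlapped, and it was not called, with 0.018 (adjusted p = 0.91) and 0.12 corrected. Atp6v1e1, another stalk subunit, stood at 231 and 170.1 CPM in the controls against 233 and 260.4 CPM in the extravasated libraries; the groups did not overlap, but the first control and the first extravasated library were almost level, and it was not called (0.30, adjusted p = 0.169). Atp6v1h, which restrains free V1, had -0.31 (adjusted p = 0.0849) and was called after correction with 0.54 (adjusted p = 0.0249). Atp6v1e1 and Atp6v1c1 were called in neither fit, with corrected values of 0.32 and 0.48. Among accessory proteins Atp6ap1, which helps to assemble the pump, rose with 0.40 (adjusted p = 0.0287) and had 0.29 corrected, and Atp6ap2, the prorenin receptor (ENSMUSG00000031007.2, GRCm38 chromosome X, 12587801 to 12617049), stood at 73.0 and 65.3 CPM in the controls against 32.2 and 36.0 CPM in the extravasated libraries, with an edgeR log2 fold change of -1.02 ± 0.146 (SE, adjusted p = 0.00213); its transcript has a GC content of 40.5%, and the corrected value was 0.083 (adjusted p = 0.71). All 15 V-ATPase genes had a positive corrected value, between 0.083 and 1.30, and 3 of them were called. Of all 12320 tested genes 6621 had a positive corrected value, as had 10 of 14 other V-ATPase subunits and assembly factors. The genes share the same libraries and are not independent, so their common sign was not tested.

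**Figure D3:**
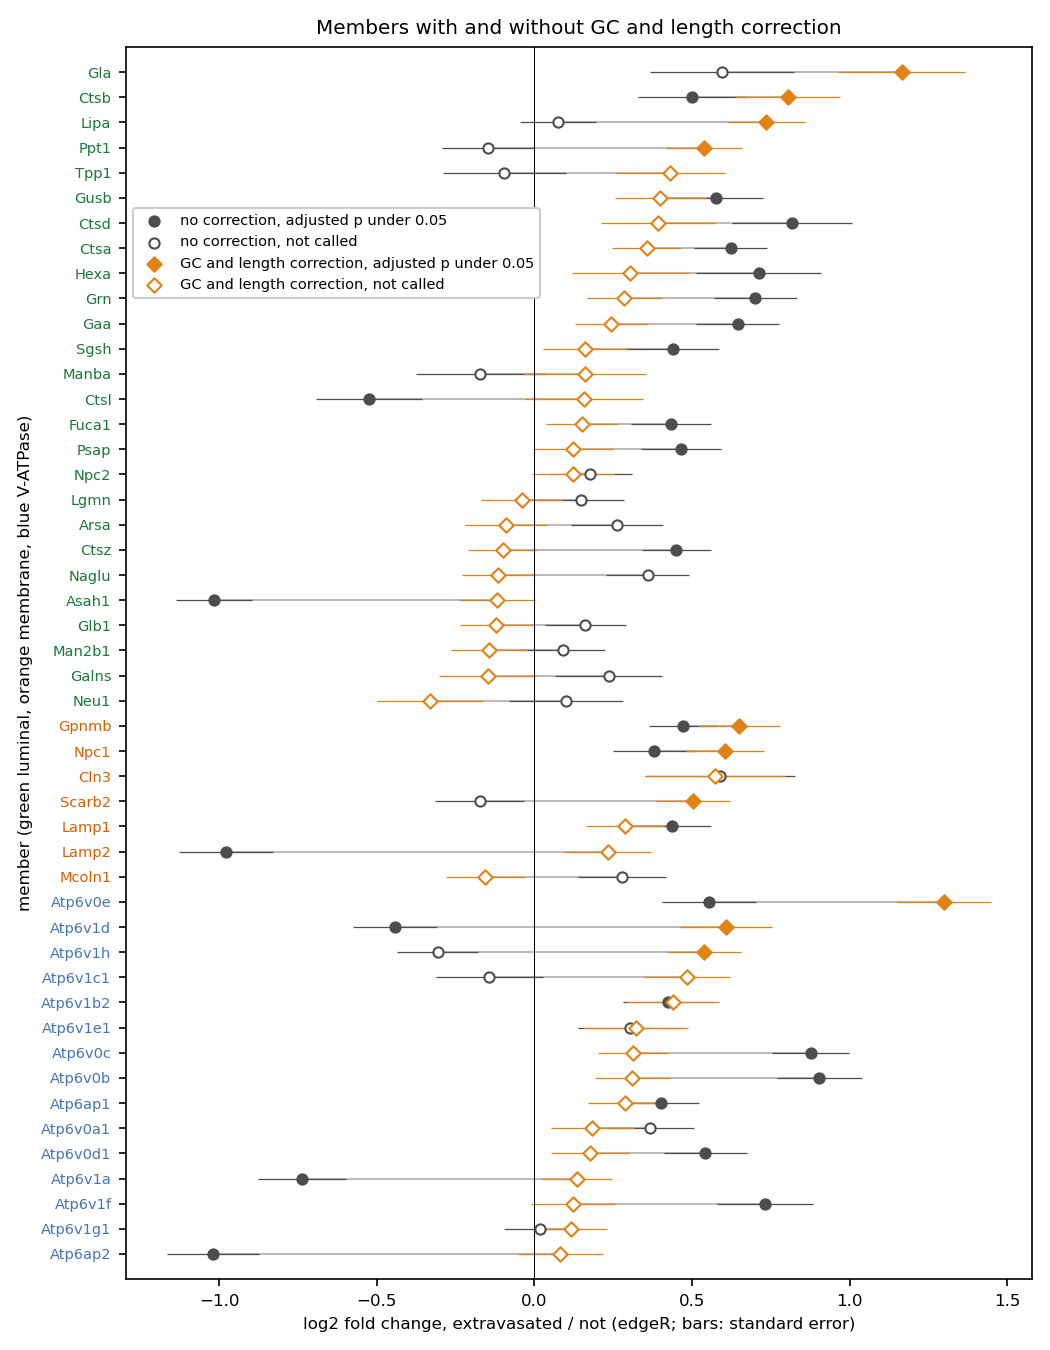
Log2 fold change (extravasated over non-extravasated) of each member with its standard error, without correction (grey circles) and with GC and length correction (orange diamonds), in rows sorted by the corrected value within each class. Filled symbols have an adjusted p under 0.05; 21 filled circles lie right of 0 and 6 left of it, and all 10 filled diamonds lie right of it.

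The members can be read beside genes of similar GC content. Among 3708 nuclear coding genes in the tercile with the lowest GC content (33.4 to 47.3%), 65.7% were lower and 1.08% higher, with a median log2 fold change of -0.98. The 14 members in that tercile had a median of -0.24, with 6 lower and 1 higher. In the middle tercile (47.3 to 53.6%) 15.4% of genes were higher and 14.9% lower with a median of 0.037, while of 17 members 9 were higher, with a median of 0.40. In the tercile with the highest GC content (53.6 to 76.3%) 44.4% of genes were higher with a median of 0.46, and 11 of 17 members were higher with a median of 0.47. Differences between members and other genes within a tercile were not tested. Spearman's rho between fold change and GC content over the 48 members was 0.64 before and -0.43 after correction, so among these genes a relation of the opposite sign came with the correction. The members called higher after correction sorted by GC content too. Gla, Lipa, Ppt1, Scarb2, Atp6v1d, Atp6v1h and Atp6v0e lay in the lowest tercile, and Ctsb, Npc1 and Gpnmb in the middle one. The corrected share of members called is therefore not independent of GC content.

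**Figure D4:**
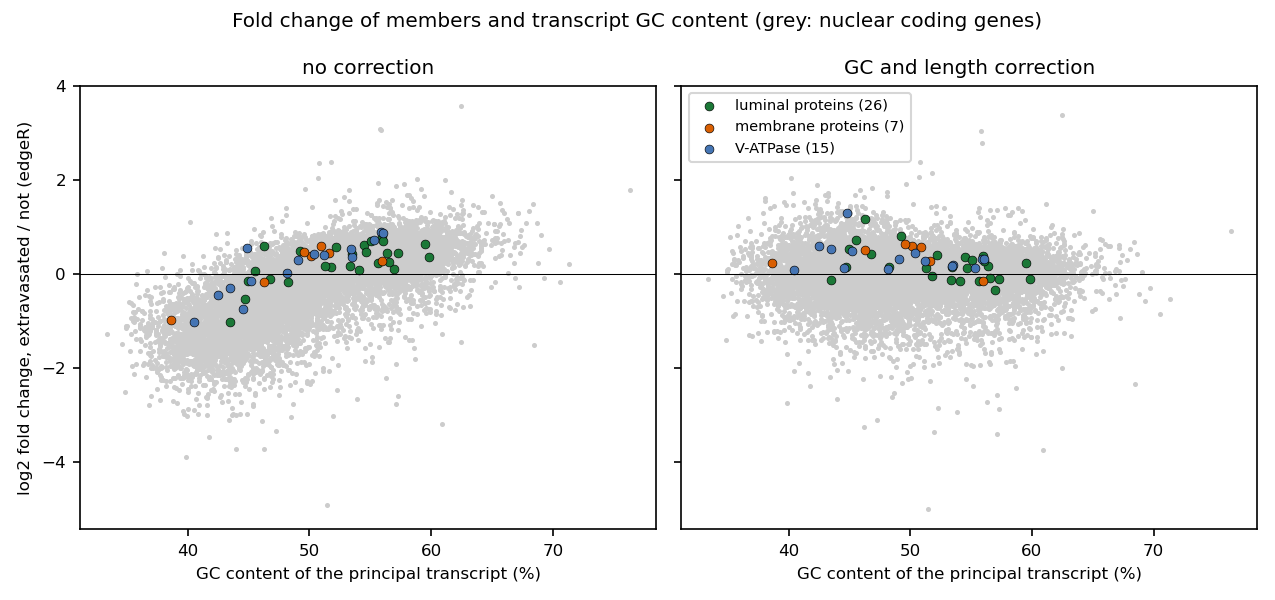
Log2 fold change (vertical axis) against the GC content of the principal transcript in percent (horizontal axis) for nuclear coding genes in grey and the members in colour, without correction on the left and with correction on the right. On the left grey and coloured points rise together with GC content, and on the right most members with a GC content under 47.3% lie above 0.

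The regulators of these genes included calls in both directions. Of 19 tested MiT/TFE factors and genes of nutrient signalling at the lysosome, 5 were higher and 4 lower, with a median log2 fold change of 0.066; of all tested genes 19.1% were higher and 25.9% lower. After correction Lamtor3 was higher with 0.49 (adjusted p = 0.0468), and Lamtor2 and Zkscan3 were lower, Lamtor2 with -0.53 (adjusted p = 0.0268). With the longest transcript in the correction Lamtor3 was not called (0.44, edgeR adjusted p = 0.0643), while Lamtor2 and Zkscan3 stayed lower. Mitf, the pigment cell factor of the family, stood at 529.8 and 321 CPM in the controls against 166 and 203 CPM in the extravasated libraries, with an edgeR log2 fold change of -1.20 ± 0.254 (SE, adjusted p = 0.0132); its corrected value was -0.11 (adjusted p = 0.751). Tfeb, the factor best known for driving lysosomal genes, stood at 15.9 and 18.8 CPM in the controls against 26.7 and 33.7 CPM in the extravasated libraries, with an edgeR log2 fold change of 0.80 ± 0.193 (SE, adjusted p = 0.0131), and corrected at 0.29 (adjusted p = 0.257). Tfe3 stood at 63.7 and 77.5 CPM in the controls against 85.2 and 91.7 CPM in the extravasated libraries and was not called, with 0.32 (adjusted p = 0.104) and -0.055 corrected. Lamtor1, an anchor of mTOR signalling on lysosomes, and Rptor, a partner of that kinase, were higher with 0.79 (adjusted p = 0.00287) and 0.53 (adjusted p = 0.0124). Neither was called after correction, with 0.20 (adjusted p = 0.265) and 0.41 (adjusted p = 0.0557). Zkscan3, a repressor of autophagy and lysosomal genes, fell from 37.7 to 12.6 CPM in the mean, with an edgeR log2 fold change of -1.58 ± 0.171 (SE, adjusted p = 0.00092), and kept its call after correction with -1.27 (adjusted p = 0.0052). Fnip1, a partner of folliculin, fell with -1.54 (adjusted p = 0.0209) and had -0.063 corrected.

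Other parts of the system were counted from lists of genes outside the 48. Beside them, 19.1% of all tested genes were higher and 25.9% lower, and 8.24% and 5.83% after correction. Of 29 other lysosomal enzymes and activators 5 were higher and 6 lower (median -0.015), and after correction 4 higher and 1 lower. With the longest transcript in the correction the counts were 2 and 1. Smpd1, acid sphingomyelinase, was higher with 0.83 (adjusted p = 0.0024) and stayed called with 0.44 (adjusted p = 0.0411). Plbd2 was higher with 0.64. Ids, which acts on heparan and dermatan sulfate, and Ctsc, a dipeptidyl peptidase, were lower with -1.18 and -0.90, and none of these 3 was called after correction. Ctso, a cathepsin at 1.82 CPM in the controls and 0.155 CPM in the extravasated group in the mean, was lower in both fits. Of 22 other membrane proteins 7 were higher and 3 lower (median 0.30): Tmem192, Cd63 and Clcn7, a chloride-proton exchanger, with 0.71, 0.55 and 0.59, and Mfsd8, Ostm1, the partner of Clcn7, and Tmem106b with -1.26, -0.72 and -1.07. None of these 6 was called after correction, where 1 of the 22, Acp2, was higher with 0.66 (adjusted p = 0.0255). With the longest transcript in the correction 2 were higher, Acp2 and Lmbrd1 (0.61, edgeR adjusted p = 0.0421). The corrected value of Cd63 depended on the transcript. It was -0.0038 with the principal one (edgeR adjusted p = 0.986) and 0.42 with the longest (edgeR adjusted p = 0.0509).

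Of 14 other V-ATPase subunits and assembly factors 5 were higher and 4 lower (median 0.23). For this list and the next, the shares of all tested genes were again 19.1% and 25.9%, and 8.24% and 5.83% after correction. Tcirg1, another form of the large V0 subunit, was higher with 0.71 (adjusted p = 0.00386), as were Rogdi (0.88) and Tmem9 (0.65). Dmxl2 and Wdr7, of the complex that assembles V1 on V0, were lower with -1.94 (adjusted p = 0.00204) and -0.74 (adjusted p = 0.00859), and Oxr1 with -1.13. None of these 6 was called after correction, where 2 others were higher, Atp6v0a2 (0.48) and Tmem199 (0.54). With the longest transcript in the correction Atp6v0a2 lost its call (0.45, edgeR adjusted p = 0.0594). Of 17 genes that sort lysosomal enzymes 6 were higher and 4 lower (median 0.23). The adaptor subunits Ap1s1 and Ap1m1 and the adaptor Gga1 were higher with 0.75, 0.65 and 0.64. Ap1g1, the clathrin heavy chain Cltc and Vps35 of the retromer were lower with -0.99, -1.04 and -0.95. None of these 6 was called after correction, where Gga2 (0.68, adjusted p = 0.0171) and Vps29 of the retromer (0.91, adjusted p = 0.00698) were higher. With the longest transcript in the correction Gnptg was higher too (0.61, edgeR adjusted p = 0.0488).

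The 10 members called after correction kept positive values when a library was left out. With either non-extravasated library left out, the log2 fold changes lay between 0.46 and 1.42. Without extravasated library 2 they lay between 0.52 and 1.18, and without extravasated library 1 between 0.47 and 1.47. In each such fit the spread came only from the pair that remained, and the control pair parted in more members. Calls kept or lost in these fits therefore do not show which libraries the 10 calls rest on. In 17 members exons overlap another annotated gene, and in 7 of them, Ctsa, Ctsb, Glb1, Sgsh, Ppt1, Npc1 and Cln3, the overlapping gene had over 10% of the member's reads.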

How the data were processed

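Polyadenylated RNA of 4 libraries was extracted with miRNeasy, made into TruSeq stranded libraries and sequenced, per the labels' protocols. The submitters' processing notes name bcl2fastq 2.18.0.12, STAR 2.5.3a and GRCm38. The authors deposited raw read counts per gene, in whole numbers; the counter, annotation release and strand setting are not given in the sources used here. Library totals of 11705904 to 19674733 counts set the precision, and intervals would cover counting error only. Groups came from the extravasation label.

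Of 53465 genes, 53360 were matched by identifier to GENCODE M21, and 12320 passed edgeR's filter (minimum count 10, total 15). The test was edgeR 4.0.16 quasi-likelihood (R 4.3.3, TMM scaling), 2 libraries against 2, with Benjamini-Hochberg adjustment over all tested genes and a threshold of 0.05. The correction fitted each library's log2 CPM deviations (prior count 2) on GC content and log2 length of the principal coding transcript by a smooth of basis size 10 in mgcv 1.9.3, which was given to edgeR as offset; mitochondrial genes were left out. Alternatives were other scalings, filters and tools (DESeq2 1.42.0, limma 3.58.1), the longest transcript, a stricter threshold of 0.01, a term for the title suffix, and leaving out each library. The uncorrected edgeR test was run on simulated counts without a GC trend, and the correction was not tested on simulated data. Values are given in every library for up to 5 called members per class and direction with the smallest adjusted p, the 3 per class with the highest level per kilobase and every membrane protein; other lists name up to 3 called genes per direction, and Mitf, Tfeb and Tfe3; 1 gene of these lists is not reported here. The members and lists were chosen with earlier results of these data known.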

Additional observations from a re-analysis of the deposited data

How the results depend on the processing

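The labels number no replicates. 1 library of each group has a title ending in C. With the kind of title suffix as a term, 24 members were higher and 6 lower, and Gla, Naglu and Atp6v0a1 were newly called (adjusted p = 0.0278, 0.041 and 0.0286). With the correction, by principal and longest transcript, 10 and 10 members were higher and 0 and 0 lower (luminal 4 and 4 higher, V-ATPase 3 and 3, and 0 lower in each class). Medians were 0.26 and 0.24 for all members, 0.16 and 0.13 for luminal proteins, and 0.50 for membrane proteins with the principal transcript. With library totals in place of TMM factors the luminal median was 0.25. At the threshold of 0.01 the counts were 6 higher members, with luminal 3 higher and 1 lower, membrane 0 higher and V-ATPase 3 higher. DESeq2 and limma-voom changed no member's direction or call. For the suffix term, the stricter threshold, the other scalings, filters and tools, and the fits leaving out a library, shares of all tested genes are not given. Those counts therefore describe the members alone. Uncorrected, the call of Ctsb ended with the CPM filter (adjusted p = 0.0515) and that of Npc1 with library totals (adjusted p = 0.0627). When each library was left out, all members higher ranged over 2 to 24 uncorrected and 0 to 20 corrected, lower over 3 to 6 uncorrected and 0 to 1 corrected and medians over 0.30 to 0.52 uncorrected and 0.20 to 0.32 corrected. Luminal proteins higher ranged over 0 to 12 uncorrected and 0 to 10 corrected, lower over 1 to 2 uncorrected and 0 to 1 corrected and medians over 0.25 to 0.49 uncorrected and 0.14 to 0.22 corrected. Membrane proteins higher ranged over 0 to 3 uncorrected and 0 to 4 corrected, lower over 1 to 1 uncorrected and 0 to 0 corrected and medians over 0.29 to 0.51 uncorrected and 0.46 to 0.51 corrected. V-ATPase higher ranged over 2 to 9 uncorrected and 0 to 6 corrected, lower over 1 to 3 uncorrected and 0 to 0 corrected and medians over 0.25 to 0.55 uncorrected and 0.21 to 0.37 corrected.

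Members whose sign turned are given with the corrected log2 fold changes by principal and longest transcript, where these turned, and then the range over all fits that left out 1 library, with and without correction. The values were Ctsl (0.16 and 0.47, -0.74 to 0.50), Ctsz (-0.10 and -0.11, -0.11 to 0.57), Lgmn (-0.040 and -0.082, -0.13 to 0.33), Tpp1 (0.43 and 0.38, -0.35 to 0.73). Others were Glb1 (-0.12 and -0.16, -0.14 to 0.28), Neu1 (-0.33 and -0.36, -0.53 to 0.38), Manba (0.16 and 0.11, -0.41 to 0.48), Man2b1 (-0.14 and -0.17, -0.20 to 0.26). Others were Naglu (-0.11 and -0.14, -0.16 to 0.53), Galns (-0.15 and -0.18, -0.16 to 0.35), Arsa (-0.089 and -0.11, -0.18 to 0.45), Ppt1 (0.54 and 0.48, -0.18 to 0.61). Others were Lamp2 (0.23 and 0.21, -1.10 to 0.43), Mcoln1 (-0.16 and -0.18, -0.17 to 0.40), Scarb2 (0.50 and 0.46, -0.22 to 0.57), Atp6v1a (0.13 and 0.095, -0.83 to 0.19). Others were Atp6v1c1 (0.48 and 0.43, -0.28 to 0.62), Atp6v1d (0.61 and 0.58, -0.49 to 0.77), Atp6v1g1 (-0.037 with library totals without scaling, -0.013 to 0.19), Atp6v1h (0.54 and 0.50, -0.34 to 0.61). Others were Atp6ap2 (0.083 and 0.057, -1.09 to 0.22). The cause was not tested.

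Cln3 had the lowest count of the members, and 2 libraries a group limited every test.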
